A study of Mus musculus with 8 samples.

Results

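Genes of the endoplasmic reticulum (ER) secretory pathway and of the unfolded protein response were followed in mouse liver. The set holds 54 genes, chosen by name from the gene symbols in the deposited tables, of 16796 genes listed there. All 54 were listed and all 54 passed the filter on low counts. They comprise 5 sensors and transcription factors, 15 folding genes, 13 translocation genes, 5 glycosylation genes, 3 export genes, 8 degradation genes and 5 genes of the ATF4 arm. The folding, translocation, glycosylation, export and degradation genes are called the 44 secretory genes below.

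Bulk RNA sequencing covered whole livers of 4 E4bp4-LKO mice (numbers 143, 144, 145 and 179), which lack E4bp4 in the liver by label, and of 4 WT mice (numbers 164, 165, 166 and 167). All 8 mice were 2 months old when they were put on a diet that causes non-alcoholic steatohepatitis (NASH), and were kept on it for 20 weeks. The promoter that drove the deletion, the floxed allele, and the sex, strain, litters and hour of sampling of the mice are not stated in the sources used here. Nfil3 encodes E4BP4, a bZIP protein that represses transcription from D-box sequences, and the study's title links hepatocyte E4BP4 to liver fibrosis.

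The ER is where secreted and membrane proteins enter the secretory pathway, fold, receive their sugar chains and leave for the Golgi, and hepatocytes use it to make most plasma proteins. When unfolded proteins build up, 3 membrane sensors respond. IRE1 (Ern1) excises a short intron from the Xbp1 mRNA, so that the factor XBP1 is made and drives genes of translocation, folding and degradation. ATF6 is cut in the Golgi by the site-1 protease (Mbtps1) and drives chaperone genes. PERK (Eif2ak3) phosphorylates the initiation factor eIF2 and raises translation of ATF4, which drives genes of amino acid supply and, with CHOP (Ddit3), of cell death.

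The IRE1 site of Xbp1 is shown because the measured Xbp1 total counts both the unspliced and the spliced mRNA. It lies in exon 4 of the GENCODE M21 transcript, at chr11:5524272-5524311 of GRCm38, plus strand, and the 26 excised bases are in capitals. They span positions 5524279 to 5524304.
Xbp1 IRE1 site: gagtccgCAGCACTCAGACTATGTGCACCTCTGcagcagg
The number of excised bases is not a multiple of 3 (remainder 2), so their loss shifts the reading frame.

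Promoter elements are shown because the factors above act through them. The promoters are RefSeq windows on GRCm38.p6, from 250 bases before to 50 bases after each start, and 46 of the 54 genes matched, with 50 promoters. The ER stress element (ERSE), bound by ATF6 and XBP1 together with NF-Y, was searched on both strands as CCAAT, then 9 bases of any kind, then CCACG. The lines below give it with both fixed parts in capitals.
Hspa5, chr2:34772020-34772048, plus strand: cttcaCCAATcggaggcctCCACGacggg
Dnajc3, chr14:118937822-118937850, plus strand: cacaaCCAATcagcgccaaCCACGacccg
Syvn1, chr19:6046527-6046555, plus strand: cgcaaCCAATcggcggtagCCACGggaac
Pdia6, chr12:17266486-17266514, plus strand: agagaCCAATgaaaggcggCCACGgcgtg
Canx, chr11:50325795-50325823, minus strand: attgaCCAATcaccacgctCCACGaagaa
The C/EBP-ATF response element (CARE), bound by ATF4 with a C/EBP partner, was searched on both strands as TGATGNAA, where N is any base, and is in capitals in the next lines.
Asns, chr6:7693220-7693237, minus strand: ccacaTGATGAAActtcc
Chac1, chr2:119351044-119351061, minus strand: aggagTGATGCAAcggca
Trib3, chr2:152344034-152344051, plus strand: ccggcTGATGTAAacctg

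Libraries held 23805540 to 32290265 summed expected counts in E4bp4-LKO and 28477075 to 30200874 in WT. Levels below are CPM, counts per 1e6 counts of the library, after scaling by the trimmed mean of M values (TMM), and log2 fold changes are E4bp4-LKO over WT from edgeR's quasi-likelihood test, with Benjamini-Hochberg adjusted p over 13244 genes and a threshold of 0.05. Nfil3 (Entrez Gene 18030) measured 3.33, 6.23, 6.14 and 3.35 CPM in E4bp4-LKO livers 143, 144, 145 and 179, against 11.4, 8.79, 12.1 and 16.5 CPM in WT livers 164 to 167. Every E4bp4-LKO liver was below every WT liver (log2 fold change -1.35, adjusted p = 0.0121), and the exact two-sided permutation test gave p = 0.0286, the smallest that 70 arrangements allow. On the first principal component, with 52.7% of the variance, scores were 19.2 to 31.2 in E4bp4-LKO and -49.3, -30.1, -11.1 and -10.4 in WT 164, 165, 166 and 167, so that WT 164 and 165 stood apart from the other WT livers. Their TMM factors were 1.16 and 1.09, against 0.941 to 0.963 in E4bp4-LKO and 1.00 and 0.984 in WT 166 and 167.

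Of the 54 genes, 5 rose in E4bp4-LKO liver (Xbp1, Ern1, Mbtps1, Hyou1 and Sec23b), 0 fell and 49 did not pass the test. That is 9.26% higher and 0% lower, where 4.36% of all genes tested were called higher and 6.48% lower. In either direction 10.8% of all genes were called, close to the 9.26% here. The difference in direction was not tested, so the count by itself does not set these genes apart. The number of the 54 that rose was 1 without E4bp4-LKO 144 or 179 or WT 165 or 166, and 2 without WT 167. Of all genes tested, 1.75%, 2.49%, 1.96% and 3.11% were called higher in the first 4 of these fits, in that order. Without WT 167 it was 4.53%. Fold changes were small: the median over the 54 was 0.12 on the log2 scale, against 0.01 for all genes tested, and the range was -0.87 to 0.51. A positive value was seen for 43 genes and a negative one for 11, but scaling by library totals, without TMM, gave 21 positive and 33 negative, and the median of all genes was then -0.15. The number of the 54 genes above the median of all genes was 43 under both scalings. This change of scaling moves all log2 fold changes by nearly the same amount, so that agreement was given in advance. In limma on log2(FPKM + 1) the number was 36, and 32 with no filter. All 4 E4bp4-LKO livers lay above all 4 WT livers for 11 of the 54 genes, or 20.4%, where 8.80% of all genes tested did so. The reverse held for 1 gene, Eif2ak3, where 9.68% of all genes tested did so. These counts and shares are of TMM-scaled CPM and were not made with library totals. Of the 11 genes, Sec31a and Derl2 had negative log2 fold changes with library totals. In bulk tissue, fewer cells of a type and less RNA per cell cannot be told apart, and this applies to every value below.

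**Figure D1:**
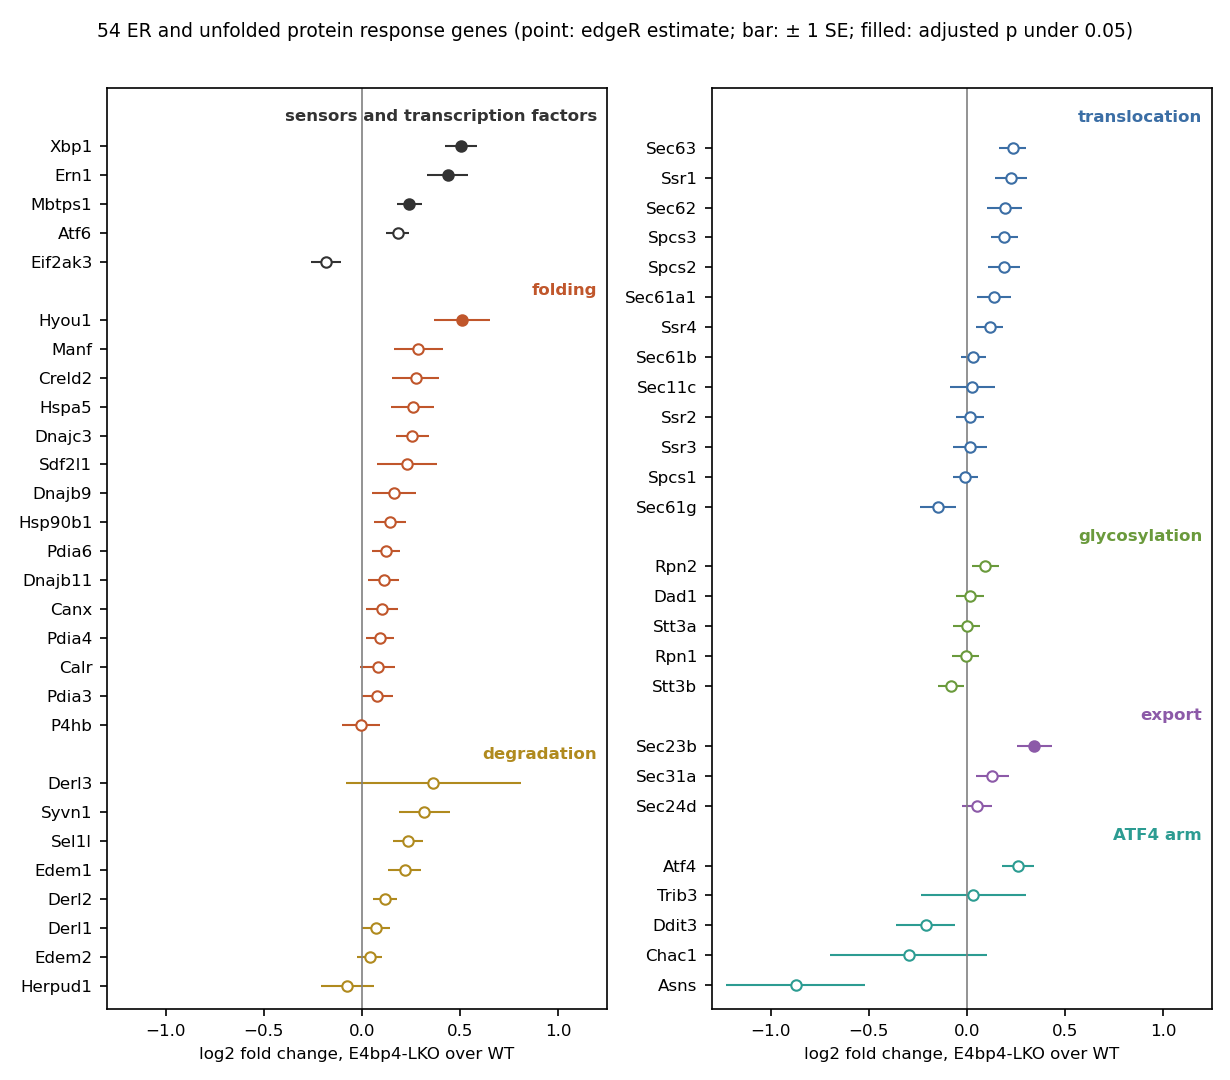
Log2 fold change (E4bp4-LKO over WT, from edgeR) of each of the 54 genes, grouped by role, with bars of 1 SE and 4 livers per group; filled symbols pass an adjusted p of 0.05. Most secretory genes sit between 0 and 0.3, the 5 genes that rose lie between 0.24 and 0.51, and Asns has the lowest value, -0.87.

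The sensors and transcription factors held 3 of the 5 genes that rose. Xbp1, the factor made after IRE1 splicing, measured 194, 235, 225 and 219 CPM in E4bp4-LKO livers, against 166, 157, 146 and 146 CPM in WT livers. All E4bp4-LKO livers were above all WT livers, with means of 218 ± 17.6 and 154 ± 9.48 CPM (SD, n = 4 each), a log2 fold change of 0.51 (SE 0.08) and an adjusted p of 0.00625, or 1.42-fold. Xbp1 passed with each of the 8 mice left out in turn (adjusted p 0.0052 to 0.0247), and it was the one gene of the 54 that passed with library totals in place of TMM (0.34, adjusted p = 0.0440).

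Ern1, which encodes the sensor IRE1, measured 33.4, 34.2, 25.6 and 35.8 CPM in E4bp4-LKO livers, against 26.2, 22.3, 22.9 and 23.78 CPM in WT livers. E4bp4-LKO 145 lay below WT 164, so the groups overlapped, and edgeR gave a log2 fold change of 0.44 (SE 0.11) and an adjusted p of 0.0268. Ern1 no longer passed without E4bp4-LKO 144 or 179 or without WT 165 or 166, with an adjusted p of up to 0.0795.

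Mbtps1, the protease that releases ATF6, measured 83.2, 93.4, 88.8 and 91.3 CPM in E4bp4-LKO livers, against 74.6, 73.7, 78.2 and 75.4 CPM in WT livers. The groups did not overlap, and edgeR gave a log2 fold change of 0.24 (SE 0.06) and an adjusted p of 0.0378. Mbtps1 passed when E4bp4-LKO 143 was left out, and did not pass when any of the other 7 mice was left out (adjusted p up to 0.106).

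Atf6, the sensor that Mbtps1 acts on, measured 102, 107, 98.3 and 104 CPM in E4bp4-LKO livers, against 89.5, 92.2, 90.1 and 90.1 CPM in WT livers. These groups did not overlap either, yet the log2 fold change of 0.18 (SE 0.06) had an adjusted p of 0.0766. Eif2ak3, which encodes PERK, measured 19.3, 19.8, 19.7 and 18.7 CPM in E4bp4-LKO livers, against 24.4, 22.4, 20.0 and 21.2 CPM in WT livers. Every E4bp4-LKO liver was below every WT liver by a narrow margin at WT 166 (log2 fold change -0.18, SE 0.08, adjusted p = 0.154). Thus genes of the IRE1 and ATF6 branches had positive values and that of the PERK sensor a negative one, but neither Atf6 nor Eif2ak3 passed the test.

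The tables give no splice junctions. They do give a length of Xbp1 per library, averaged over its RefSeq transcripts by their estimated abundance, which would be shorter with more of the shorter transcript. It was 2258.44, 2260.95, 2261.01 and 2259.13 bases in E4bp4-LKO livers, against 2260.64, 2261.88, 2260.56 and 2260.11 bases in WT livers. The groups overlapped, and the difference of -0.915 bases had a two-sided exact permutation p of 0.286. The transcript estimates behind this length were made from short reads, so the share of spliced Xbp1 was not measured directly.

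**Figure D2:**
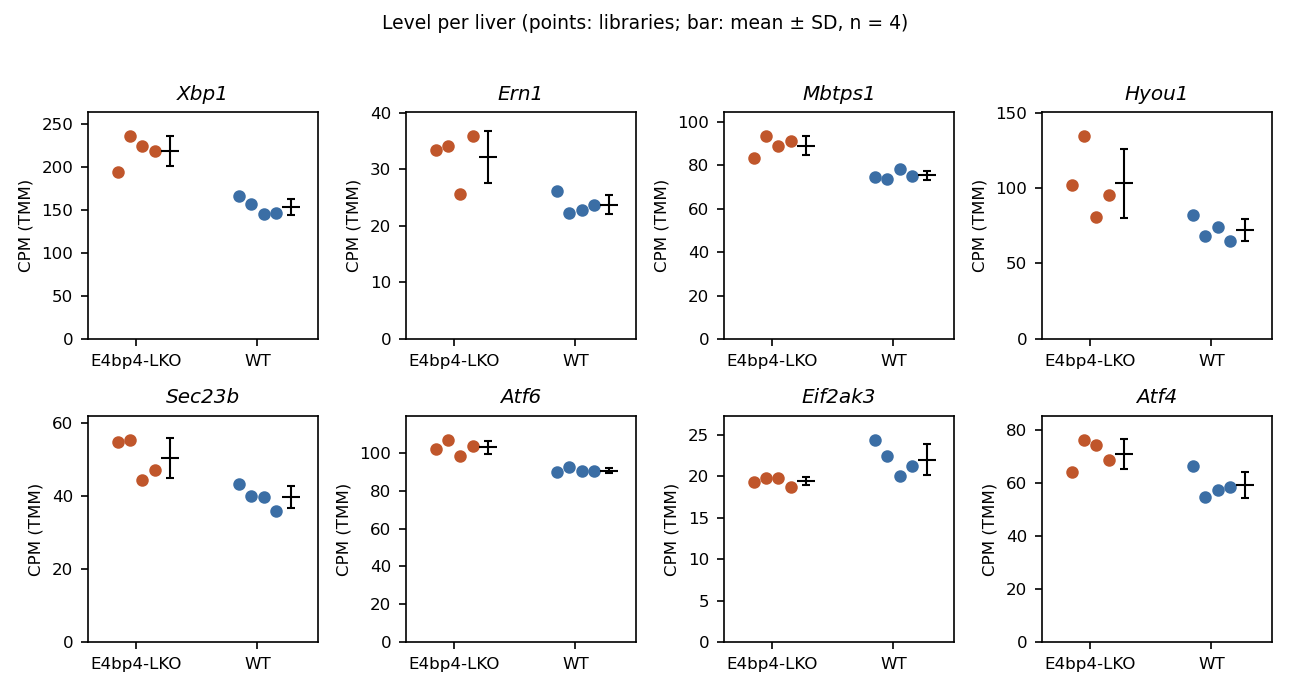
TMM-scaled CPM in each of the 8 livers for the genes named on the panels, E4bp4-LKO left of WT, with the mean ± SD (n = 4) beside the points and each axis starting at 0. In the Xbp1 panel the lowest E4bp4-LKO liver (194 CPM) is above the highest WT liver (166 CPM), while in the Eif2ak3 panel all E4bp4-LKO livers are below all WT livers.

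Among the 15 folding genes 1 rose and 0 fell, with a median log2 fold change of 0.14, and 14 had a positive value. With library totals in place of TMM, 8 of these turned negative: Hsp90b1, Calr, Canx, Pdia3, Pdia4, Pdia6, Dnajb9 and Dnajb11. The gene that rose was Hyou1, an ER chaperone of the Hsp110 family that exchanges nucleotide on BiP. Hyou1 measured 102, 134, 80.8 and 95.2 CPM in E4bp4-LKO livers, against 82.1, 68.3, 73.9 and 65.0 CPM in WT livers. E4bp4-LKO 145 lay just below WT 164, and edgeR gave a log2 fold change of 0.51 (SE 0.14) and an adjusted p of 0.0439. Hyou1 passed without E4bp4-LKO 145 and without WT 164, and did not pass without any of the other 6 mice (adjusted p up to 0.113).

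Hspa5, which encodes BiP, the main Hsp70 chaperone of the ER, measured 464, 526, 387 and 461 CPM in E4bp4-LKO livers, against 412, 391, 395 and 336 CPM in WT livers. E4bp4-LKO 145 lay below 3 of the 4 WT livers, and the log2 fold change of 0.26 (SE 0.11) had an adjusted p of 0.149. Dnajc3, a BiP co-chaperone that also inhibits PERK, measured 195, 218, 194 and 241 CPM in E4bp4-LKO livers, against 178, 177, 178 and 177 CPM in WT livers. It did not overlap between the groups (log2 fold change 0.26, SE 0.09, adjusted p = 0.0751). Manf, a secreted ER stress factor, and Creld2, an ER-resident protein with disulfide isomerase activity, had log2 fold changes of 0.29 and 0.28, with adjusted p of 0.160 and 0.158, with overlap between the groups.

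P4hb, a protein disulfide isomerase and the only folding gene with a negative value, measured 1425, 1495, 1485 and 1666 CPM in E4bp4-LKO livers, against 1419, 1511, 1575 and 1577 CPM in WT livers. These values were interleaved (log2 fold change -0.00, SE 0.10, adjusted p = 0.990). The lectin chaperones Calr and Canx, which hold glycoproteins during folding, had log2 fold changes of 0.08 and 0.10, with adjusted p of 0.599 and 0.458. Hsp90b1, the ER Hsp90, had a log2 fold change of 0.14 and an adjusted p of 0.286.

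Per length, in the deposited FPKM, fragments scaled by transcript length and library size, P4hb and Calr led the whole set. P4hb stood at 563 ± 34.7 FPKM in E4bp4-LKO and 629 ± 18.2 FPKM in WT (SD, n = 4 each), followed by Calr at 322 ± 14.1 and 341 ± 46.2 FPKM. Herpud1 came next, at 224 ± 32.0 FPKM in E4bp4-LKO and 261 ± 20.1 FPKM in WT, and Calr and Herpud1 differed by more than either group's spread. Hsp90b1 stood at 201 ± 10.1 and 203 ± 11.6 FPKM and Hspa5 at 171 ± 20.8 and 159 ± 23.9 FPKM. Herpud1 and Hsp90b1 differed by less than the spread of Herpud1 in E4bp4-LKO and by more than either spread in WT, and Hsp90b1 and Hspa5 differed by more than either spread in both groups. The lowest levels per length were those of Asns, 0.297 ± 0.158 FPKM in E4bp4-LKO and 0.602 ± 0.134 FPKM in WT, and of Derl3, 1.66 ± 1.26 and 1.42 ± 0.455 FPKM. Trib3, Chac1, Eif2ak3, Ddit3 and the IRE1 sensor Ern1 came just above them, all under 8 FPKM in both groups. The PERK sensor and most of its downstream genes were thus far lower per length than the abundant chaperones above. Such low levels were not particular to them. Ern1 was among the lowest too, and some folding genes were not far above. Sdf2l1 stood at 9.87 FPKM in E4bp4-LKO and 9.37 FPKM in WT, and Creld2 at 13.4 and 12.3 FPKM.

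Of the 13 translocation genes 0 rose and 0 fell, with a median log2 fold change of 0.12 and a range of -0.15 to 0.23. The largest positive value was that of Sec63, a partner of the Sec61 channel that recruits BiP. Sec63 measured 166, 157, 153 and 167 CPM in E4bp4-LKO livers, against 133, 145, 134 and 134 CPM in WT livers. The groups did not overlap, and the log2 fold change of 0.23 (SE 0.07) came close to the threshold (adjusted p = 0.0512). Sec61g, the gamma subunit of the Sec61 channel, had the largest negative value, with 16.99, 14.1, 15.3 and 18.2 CPM in E4bp4-LKO livers, against 17.8, 19.1, 16.6 and 17.9 CPM in WT livers. These ranges overlapped (log2 fold change -0.15, SE 0.09, adjusted p = 0.336). Sec61a1, the pore subunit, had 0.14 (adjusted p = 0.324). The signal peptidase gene Spcs3 did not overlap between the groups, with 63.2 to 73.4 CPM in E4bp4-LKO and 58.2 to 61.9 CPM in WT (log2 fold change 0.19, adjusted p = 0.103).

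Of the 5 glycosylation genes, which encode subunits of the oligosaccharyltransferase, 0 rose and 0 fell, and all 5 overlapped between the groups. Their median log2 fold change was -0.00. Rpn2 had the largest positive value (0.09, adjusted p = 0.415), with 192, 191, 195 and 200 CPM in E4bp4-LKO livers, against 181, 172, 183 and 193 CPM in WT livers. Stt3b, a catalytic subunit, had the largest negative value (-0.08, adjusted p = 0.468), with 104, 109, 101 and 102 CPM in E4bp4-LKO livers, against 117, 108, 105 and 109 CPM in WT livers.

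Of the 3 export genes, which encode parts of the COPII coat of vesicles leaving the ER, 1 rose. Sec23b measured 55.0, 55.5, 44.5 and 47.3 CPM in E4bp4-LKO livers, against 43.4, 40.0, 39.8 and 36.1 CPM in WT livers. The lowest E4bp4-LKO liver was just above the highest WT liver, and edgeR gave a log2 fold change of 0.34 (SE 0.09) and an adjusted p of 0.0358. Sec23b passed without E4bp4-LKO 145 and without WT 164, and did not pass without any of the other 6 mice (adjusted p up to 0.105). Sec24d, a cargo adaptor of the coat, and Sec31a, of its outer layer, had log2 fold changes of 0.05 and 0.13, with adjusted p of 0.707 and 0.341, and in both E4bp4-LKO 144 was the highest liver.

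Of the 8 degradation genes 0 rose and 0 fell, with a median log2 fold change of 0.17. Sel1l and Syvn1, which form the core of the ubiquitin ligase that clears misfolded ER proteins, did not overlap between the groups. Sel1l stood at 173 to 201 CPM in E4bp4-LKO and 148 to 164 CPM in WT (log2 fold change 0.23, adjusted p = 0.0752). Syvn1 measured 79.3, 116, 78.6 and 78.2 CPM in E4bp4-LKO livers, against 67.6, 62.7, 75.7 and 76.4 CPM in WT livers. E4bp4-LKO 144 was far above the other livers, and the log2 fold change of 0.32 (SE 0.13) had an adjusted p of 0.142.

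Derl3, a derlin of the degradation channel, had the largest positive value of the group (0.36, SE 0.45, adjusted p = 0.646). It measured 1.18, 1.32, 1.84 and 4.95 CPM in E4bp4-LKO livers, against 2.25, 1.10, 1.65 and 2.10 CPM in WT livers, so the positive value came from E4bp4-LKO 179, and without that mouse it was -0.29. Herpud1, a scaffold of the ligase, had the largest negative value (-0.07, SE 0.14, adjusted p = 0.775). It measured 359, 421, 488 and 504 CPM in E4bp4-LKO livers, against 381, 454, 486 and 542 CPM in WT livers, and the values were interleaved.

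**Figure D3:**
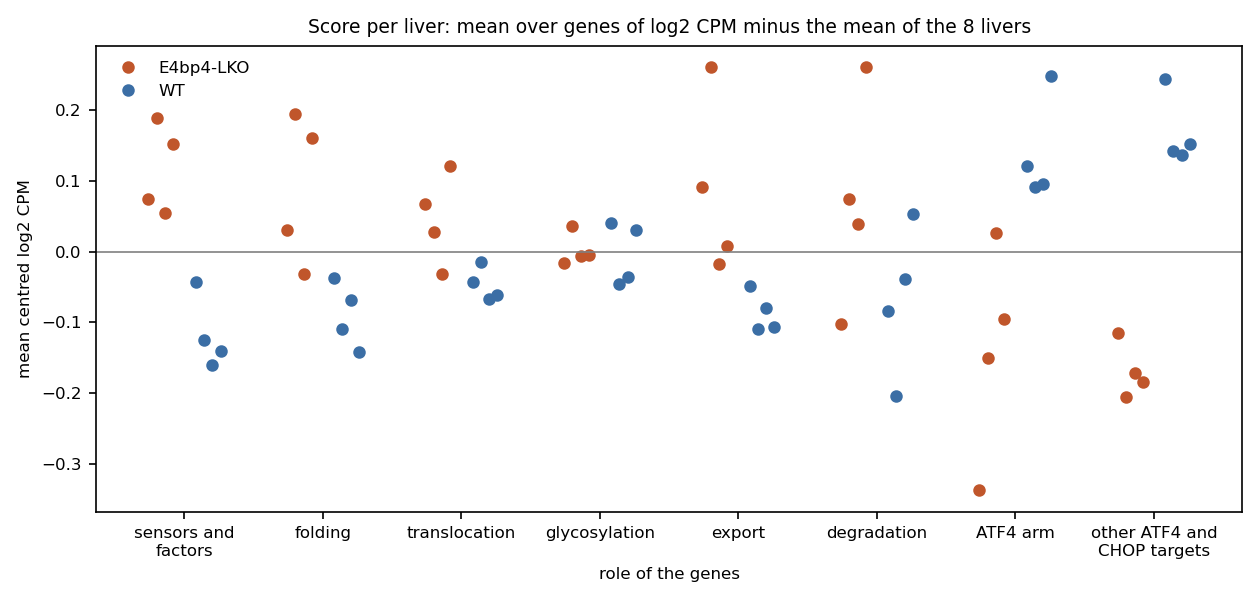
Mean over each role's genes of log2 CPM minus the gene's mean over the 8 livers (vertical axis), 1 point per liver, E4bp4-LKO left of WT. The sensor scores do not overlap (0.055 to 0.190 in E4bp4-LKO and -0.161 to -0.043 in WT), the translocation, glycosylation and degradation scores do, and those of the ATF4 arm run the other way (-0.338 to 0.026 in E4bp4-LKO and 0.092 to 0.249 in WT).

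Over the 44 secretory genes, 2 rose (4.55%, where 4.36% of all genes were called higher) and 0 fell, and the median log2 fold change was 0.12. The median turned to -0.04 with library totals, where the median of all genes was -0.15, and to -0.04 in limma on log2(FPKM + 1), where it was -0.11. The secretory genes therefore lay slightly above the typical gene under these scalings, while their sign relative to 0 depended on the scaling. TMM and library totals differ by nearly the same shift for all genes, so their agreement was given in advance. With TMM the 11 hepatocyte markers described below had a higher median, 0.25, with 10 positive values. Whether the secretory values go with those of hepatocyte genes in general was not tested. The score of the 44 genes was 0.017, 0.110, -0.015 and 0.139 in E4bp4-LKO livers, against -0.039, -0.092, -0.059 and -0.060 in WT livers. E4bp4-LKO 145 was nearest to the WT livers, and E4bp4-LKO 144 and 179 were highest. No test was made of these scores, since the genes were chosen with results of these livers known.

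**Figure D4:**
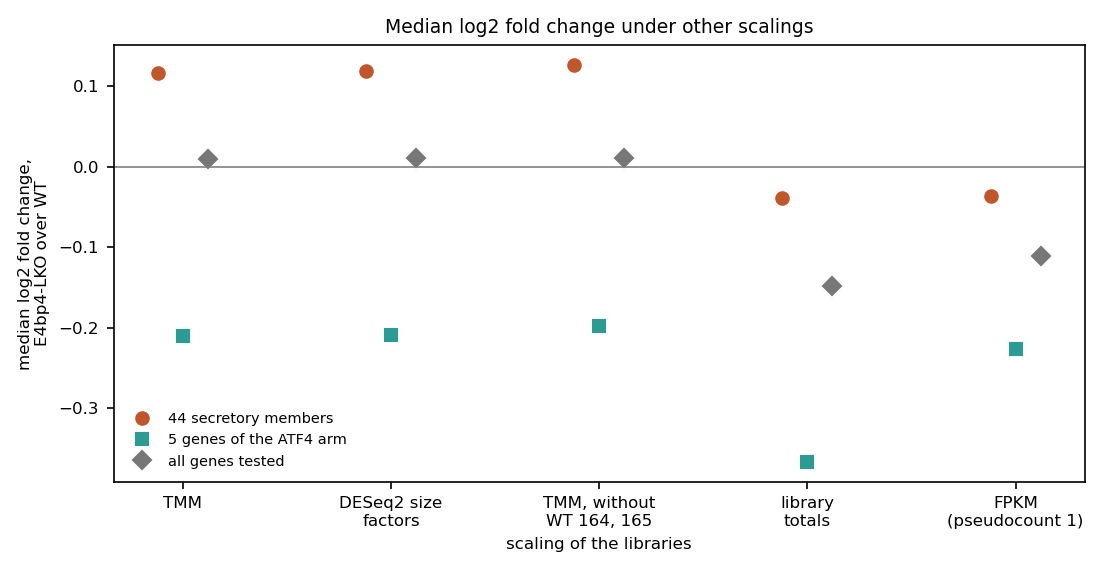
Median log2 fold change (vertical axis, E4bp4-LKO over WT) of the 44 secretory genes, the 5 genes of the ATF4 arm and all genes tested under each scaling of the libraries. With TMM the medians are 0.12, -0.21 and 0.01, and with library totals -0.04, -0.37 and -0.15. This change of scaling moves each median by nearly the same amount, so their order was bound to stay. The sign of the secretory median differs between these scalings.

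In the ATF4 arm 0 of 5 genes rose and 0 fell, and all 5 overlapped between the groups. The median log2 fold change was -0.21, against 0.12 for the secretory genes, and single mice moved it: it was -0.017 without E4bp4-LKO 143, -0.12 without E4bp4-LKO 144, -0.32 without E4bp4-LKO 145 and -0.11 without WT 167. The difference between these 2 medians was not tested. Atf4, the transcription factor itself, measured 64.3, 76.4, 74.6 and 69.0 CPM in E4bp4-LKO livers, against 66.4, 54.9, 57.6 and 58.5 CPM in WT livers. WT 164 lay above E4bp4-LKO 143, and the log2 fold change of 0.26 (SE 0.08) had an adjusted p of 0.0666. Atf4 passed in edgeR without E4bp4-LKO 143 and without WT 164, and in DESeq2 on all mice.

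Its downstream genes had lower or scattered values. Ddit3, which encodes CHOP, measured 4.92, 3.62, 3.79 and 5.45 CPM in E4bp4-LKO livers, against 4.97, 5.34, 5.05 and 5.14 CPM in WT livers. E4bp4-LKO 144 and 145 were low and E4bp4-LKO 179 was the highest of all (log2 fold change -0.21, SE 0.15, adjusted p = 0.402). Trib3, a pseudokinase that restrains ATF4 and CHOP, measured 4.70, 7.08, 12.9 and 6.11 CPM in E4bp4-LKO livers, against 7.78, 7.14, 6.52 and 8.67 CPM in WT livers. E4bp4-LKO 145 was the highest of all livers, and 143 and 179 were the lowest (log2 fold change 0.03, SE 0.27, adjusted p = 0.954), so that without E4bp4-LKO 145 the value was -0.33.

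Asns, asparagine synthetase, measured 0.999, 0.264, 0.478 and 0.669 CPM in E4bp4-LKO livers, against 1.33, 0.976, 1.09 and 0.979 CPM in WT livers. It rested on 8 to 27 counts per E4bp4-LKO library and 28 to 46 counts per WT library, with E4bp4-LKO 143 above 2 WT livers (log2 fold change -0.87, SE 0.35, adjusted p = 0.133). Without E4bp4-LKO 143 it passed as lower (adjusted p = 0.0475). Chac1, a glutathione-degrading enzyme induced by ATF4 and CHOP, measured 1.74, 8.36, 5.07 and 3.88 CPM in E4bp4-LKO livers, against 3.90, 5.80, 5.86 and 8.04 CPM in WT livers. Its values were interleaved (log2 fold change -0.30, SE 0.40, adjusted p = 0.684).

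Further ATF4 and CHOP targets were described from a list of 36 genes, of which 32 were tested. Of these 7 fell, 0 rose and 25 did not pass, and the median log2 fold change was -0.25, with 25 negative and 7 positive values. The 7 that fell are 21.9% of the 32, where 6.48% of all genes were called lower. With library totals 13 were lower and 0 higher, and without WT 164 and 165 the numbers were 4 and 0. In DESeq2 10 were lower and 2 higher, and at an adjusted p under 0.1 in edgeR 12 were lower and 2 higher. Without E4bp4-LKO 145 it was 4 that were lower. The number of all genes called in either direction moved as well, from 1436 as reported to 1951 with library totals and 2233 in DESeq2. It was 2488 at an adjusted p under 0.1, 387 without WT 164 and 165, and 735 without E4bp4-LKO 145.

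Gdf15, a stress-induced hormone, measured 8.96, 5.83, 5.48 and 7.50 CPM in E4bp4-LKO livers, against 15.2, 13.3, 20.6 and 22.9 CPM in WT livers. The groups were far apart (log2 fold change -1.37, SE 0.20, adjusted p = 0.00474). Atf3, a stress-induced transcription factor, measured 4.48, 3.03, 4.74 and 3.48 CPM in E4bp4-LKO livers, against 10.9, 8.94, 8.63 and 6.995 CPM in WT livers (log2 fold change -1.17, SE 0.18, adjusted p = 0.00442). Jdp2, a bZIP partner of the AP-1 and ATF families, measured 1.93, 2.11, 2.90 and 2.19 CPM in E4bp4-LKO livers, against 5.67, 5.19, 4.59 and 4.76 CPM in WT livers (log2 fold change -1.15, SE 0.16, adjusted p = 0.00332). These 3 genes passed with each of the 8 mice left out in turn, and each is also induced by other stress and cytokine signals.

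The other four that fell were named after their values were seen: Ddit4, an inhibitor of mTORC1 (log2 fold change -0.90, adjusted p = 0.0121), Nupr1, a stress-induced nuclear protein (-0.91, adjusted p = 0.0182), Mthfd2, a mitochondrial one-carbon enzyme (-0.98, adjusted p = 0.0353), and Slc3a2, a heavy chain of amino acid transporters (-0.28, adjusted p = 0.0387). Ddit4 passed with each mouse left out, Nupr1 in 6 such fits, Mthfd2 in 3 and Slc3a2 in 2. Nupr1 did not pass without E4bp4-LKO 144 or 145. Mthfd2 did not pass without E4bp4-LKO 144, 145 or 179 or WT 164 or 165, nor did Slc3a2 without those 5 mice or without WT 166. Not all listed targets had lower values: Aars and Eprs, which charge tRNAs, lay higher in all 4 E4bp4-LKO livers without passing (log2 fold changes 0.29 and 0.21, adjusted p = 0.0731 and 0.0836).

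**Figure D5:**
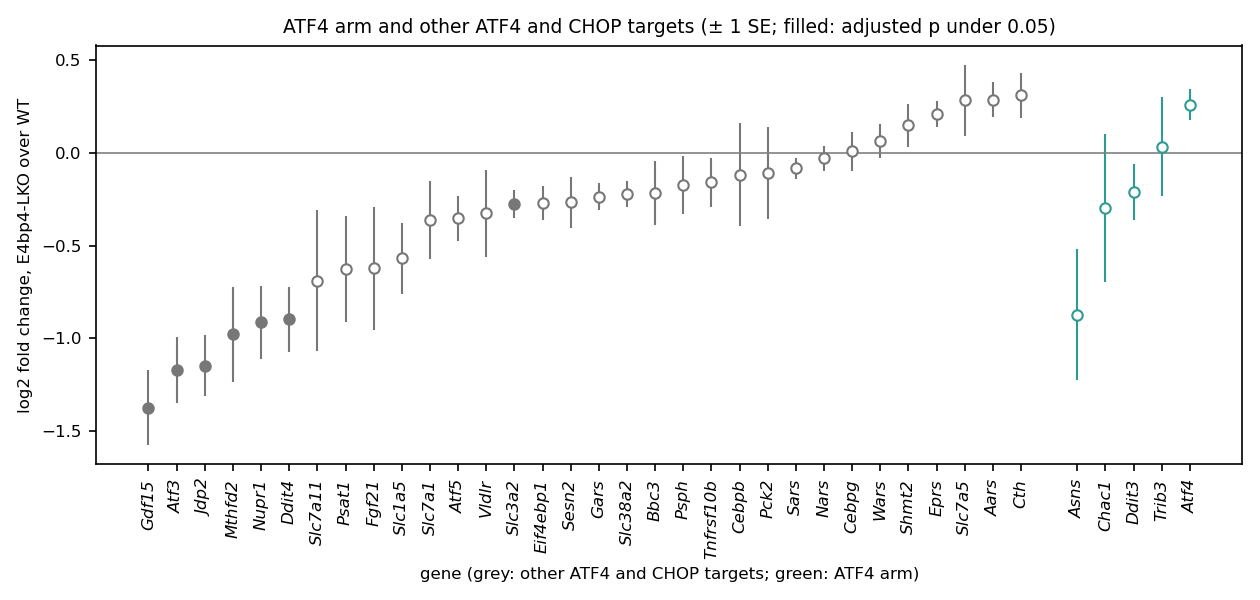
Log2 fold change (vertical axis, E4bp4-LKO over WT, from edgeR, with bars of 1 SE) of 32 further ATF4 and CHOP targets in grey and of the 5 genes of the ATF4 arm in green, with filled symbols for an adjusted p under 0.05. The 7 filled symbols are all below 0, from -1.37 for Gdf15 to -0.28 for Slc3a2, and the green symbols run from -0.87 for Asns to 0.26 for Atf4, none of them filled.

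Of 142 further ER genes in 7 lists, 8 rose and 3 fell. That is 5.63% higher and 2.11% lower, where 4.36% and 6.48% of all genes were called, so the share that rose was near the background. The number that rose was 3 without E4bp4-LKO 144 or WT 165, 4 without WT 164 or 166 and 5 without E4bp4-LKO 143 or 179, and the number that fell was 1 without E4bp4-LKO 144 or 145 or WT 164 or 166. The list of folding and oxidation genes had 3 higher and 0 lower of 25 and a median log2 fold change of 0.13. Its genes that rose were Ero1lb, an oxidase that passes oxidising power to protein disulfide isomerase, at 64.0 ± 7.18 CPM in E4bp4-LKO and 41.3 ± 1.95 CPM in WT (SD, n = 4 each; log2 fold change 0.63, adjusted p = 0.00269), Txndc11, a thioredoxin-like ER protein (0.41, adjusted p = 0.00731), and Erp44, which retains ER oxidases (0.26, adjusted p = 0.0453). Ero1lb and Txndc11 passed with each of the 8 mice left out, while Erp44 passed in 1 such fit, without E4bp4-LKO 145. With library totals 1 gene of the 142 was higher, Ero1lb, and 9 were lower. In DESeq2 15 were higher and 4 lower, and at an adjusted p under 0.1 in edgeR 16 were higher and 5 lower. Of all genes in each fit, 2.20% were called higher with library totals and 5.79% in DESeq2. The share was 1.75% without E4bp4-LKO 144 and 1.96% without WT 165.

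The list of ER to Golgi transport had 2 higher and 1 lower of 28. Lman1, a cargo receptor for glycoproteins, and Sec16a, which organises ER exit sites, had log2 fold changes of 0.34 and 0.30, with adjusted p of 0.0314 and 0.0336. Kdelr3, a receptor that returns ER proteins from the Golgi, fell to 0.778 ± 0.346 CPM in E4bp4-LKO, against 1.73 ± 0.464 CPM in WT (log2 fold change -1.18, adjusted p = 0.0406). Lman1 was lost without E4bp4-LKO 144 or 179 or WT 164 or 165, Sec16a without E4bp4-LKO 144 or 145 or WT 164, 165 or 166, and Kdelr3 without E4bp4-LKO 143, 144 or 145 or WT 164, 165 or 166. The list of ER-associated degradation had 1 higher and 0 lower of 20, Selenos, a selenoprotein of the retrotranslocation complex (log2 fold change 0.33, adjusted p = 0.0103), which passed without each mouse.

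The list of N-glycan transfer had 1 higher and 0 lower of 19, Magt1, an oligosaccharyltransferase subunit (log2 fold change 0.31, adjusted p = 0.0451), which passed in 1 fit that left out a mouse, that without E4bp4-LKO 145. Among 18 other ER stress regulators 1 was higher and 2 lower. Bax, a pro-apoptotic protein of mitochondria and ER, fell (log2 fold change -0.47, adjusted p = 0.0107) and passed without each mouse. Creb3l1, an ATF6-like factor known from collagen-secreting cells, fell to 4.85 ± 0.715 CPM in E4bp4-LKO, against 7.76 ± 1.94 CPM in WT (log2 fold change -0.68, adjusted p = 0.0381), and was lost without E4bp4-LKO 144, 145 or 179 or WT 164 or 166. Ufl1, a ligase for the ubiquitin-like UFM1, rose (0.33, adjusted p = 0.0346) and was lost without any mouse except E4bp4-LKO 179. Of 22 signal recognition and translocation genes and of 11 eIF2 kinase and phosphatase genes, 0 rose and 0 fell, with median log2 fold changes of 0.05 in each list.

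Levels of some markers of other cell types moved with the groups, and their part in these results was not tested. Of 15 stellate cell and myofibroblast markers 9 fell and 0 rose, with summed levels of 558 to 772 CPM in E4bp4-LKO and 895 to 1712 CPM in WT. That is 60% lower, where 6.48% of all genes were called lower. Those of smallest p were Timp1, Dcn and Rgs5, with log2 fold changes of -1.81, -0.55 and -0.75. Of 14 macrophage markers 9 fell (64.3%) and 0 rose (1073 to 1307 CPM in E4bp4-LKO and 1465 to 1898 CPM in WT). Their genes of smallest p were C1qa, C1qb and C1qc, with log2 fold changes of -0.56, -0.63 and -0.56. Other stellate cell markers that overlapped without passing had log2 fold changes of 0.00 for Acta2, 0.07 for Reln, -0.62 for Pdgfrb and -0.28 for Des. Among macrophage markers these were -0.03 for Clec4f, -0.14 for Adgre1, -0.24 for Csf1r and -0.24 for Vsig4. Col1a1 (-1.46, adjusted p = 0.05975) and Tagln (-0.17, adjusted p = 0.1857) of stellate cells lay lower in all E4bp4-LKO livers without passing. Timd4, of resident macrophages, lay higher in all E4bp4-LKO livers without passing (1.16, adjusted p = 0.0809). Of 5 cholangiocyte markers tested, Spp1 fell, at 69.3 to 93.5 CPM in E4bp4-LKO and 178 to 437 CPM in WT, and it made up most of the summed level (77.7 to 104 CPM in E4bp4-LKO and 191 to 472 CPM in WT). The other 4, Krt7, Epcam, Krt19 and Sox9, had log2 fold changes of -1.41 to -0.54, overlapped and did not pass. Of 11 hepatocyte markers 1 rose, Serpina1a, and 0 fell, with summed levels of 89370 to 110800 CPM in E4bp4-LKO and 68680 to 91370 CPM in WT, and the lowest sum was that of WT 164. Alb alone stood at 53380 to 68150 CPM in E4bp4-LKO and 43210 to 55060 CPM in WT, as befits the labelled tissue. Of 10 plasma cell and B cell markers tested 1 rose, Jchain, and 0 fell, with Tnfrsf17 at 0 in a library. Jchain, the joining chain of secreted antibodies, measured 12.2, 7.28, 3.38 and 5.40 CPM in E4bp4-LKO livers, against 3.09, 1.59, 1.33 and 1.22 CPM in WT livers (log2 fold change 1.95, adjusted p = 0.0239), so the groups did not overlap, and Mzb1, of plasma cells, had 0.93 (adjusted p = 0.189). The summed level of the list (183 to 233 CPM in E4bp4-LKO and 204 to 238 CPM in WT) was mostly Sdc1, at 171 to 220 CPM in E4bp4-LKO and 195 to 226 CPM in WT. Summed levels of the sinusoidal endothelial markers overlapped too, at 278 to 395 CPM in E4bp4-LKO and 281 to 315 CPM in WT, with 0 of 8 called. Of these, Kdr lay higher in all E4bp4-LKO livers without passing (0.46, adjusted p = 0.0593).

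The promoter elements shown at the start were then set beside the fold changes. ERSE was found in 9 of the 50 promoters (18%), where 0.119% of all 32851 promoters of the same length hold it. The set was chosen by name as ER and unfolded protein response genes, so this higher share is no result of these livers. The 9 genes were Calr, Canx, Creld2, Derl3, Dnajc3, Hsp90b1, Hspa5, Pdia6 and Syvn1, and Hsp90b1 had 2 copies. Their log2 fold changes were all positive, from 0.08 to 0.36 with a median of 0.26, against a median of 0.09 for the other 37 matched genes, and 0 of the 9 passed the test. With library totals Calr, Canx, Hsp90b1 and Pdia6 turned negative, and without E4bp4-LKO 179 Derl3, which had the highest value, was at -0.29. The centre of the element lay 56 bases before the start of Hspa5 and 96 bases before that of Dnajc3.

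CARE was found in 4 of the 50 promoters (8%), those of Asns, Chac1, Herpud1 and Trib3, where 3.97% of all promoters hold it. These genes had a median log2 fold change of -0.18, against 0.12 for the other 42 matched genes. Asns, Chac1 and Trib3 were chosen as genes of the ATF4 arm, so neither value is separate from that choice. With 1 mouse left out, Chac1 ran from -0.72 to -0.0165, Trib3 from -0.33 to 0.21, Herpud1 from -0.16 to 0.016 and Asns from -1.24 to -0.61. The second ER stress element, ATTGG, 1 base of any kind and CCACG, was found for Dnajb11 and Herpud1 (4%, against 0.0365% of all promoters). The letters TGACGTGG of the unfolded protein response element were found for Sec24d (2%, against 0.676%). E4BP4's own D-box, searched as TTATGTAA and TTACGTAA on both strands, was found for Sec61b in the first form (2%, against 0.938%) and for no gene of the set in the second (0.119% of all promoters). These matches describe letters in the windows and were not tested for binding.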

How the data were processed

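Per the labels' protocols, total RNA of whole liver was enriched for mRNA by oligo-dT selection or by removing ribosomal RNA, reverse transcribed with random hexamers, amplified and circularised. HISAT2 is named in the submitters' processing notes. The quantification program, genome build, annotation and strand setting are not stated in the sources used here, and reads of overlapping or antisense genes cannot be told apart. The deposited expected counts are the authors' estimates of raw reads per gene, fractional for 25.9% to 27.3% of entries in a library. The deposited FPKM values were normalized by the authors for transcript length and library size, per the file headers and values, and the length column holds abundance-weighted transcript lengths. RefSeq accessions joined 26 unnamed isoform entries to their genes. Of 16796 genes listed, 14119 stood in all 8 files, and a gene missing from a file was read as 0. No pair of libraries agreed within counting noise (lowest chi-square per degree of freedom 7.52). The floor of 3 counts was 0.0929 to 0.126 CPM, and floors cover counting error only.

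Expected counts were rounded and tested in R 4.3.3 with edgeR 4.0.16 (filterByExpr with minimum count 10 and minimum total count 15, TMM, robust glmQLFit, two-sided glmQLFTest), with 4 E4bp4-LKO and 4 WT livers and no covariate. Every adjusted p is Benjamini-Hochberg over all genes tested and comes from edgeR unless another tool is named. The SE is the absolute log2 fold change divided by the square root of F. The test was checked on simulated counts, with fold changes larger than those of the called members and no difference in composition between groups. That check does not cover fold changes as small as theirs, nor the choice of scaling. The labels number the mice, and nothing says whether litters or cages were shared, so p-values measure the spread between these mice.

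The members, gene lists, roles and tests were chosen with earlier results of these data known. Named with values per liver were Nfil3, the sensors, the ATF4 arm, members with an adjusted p under 0.05 and, per role, the members with the largest positive and negative values. From each other list up to 3 genes of smallest p could be named, and most of those that did not pass were left out. Further genes were named after their values were seen. These are the other members described, Ddit4, Nupr1, Mthfd2, Slc3a2, Aars and Eprs. The markers so named are Acta2, Reln, Pdgfrb, Des, Col1a1, Tagln, Clec4f, Adgre1, Csf1r, Vsig4, Timd4, Mzb1, Sdc1, Krt19, Sox9 and Alb. Alternatives were library totals without TMM, DESeq2 1.42.0, its size factors in edgeR, a filter at 5 CPM in 4 libraries or none, limma 3.58.1 on log2(FPKM + 1) with a minimum of 1 FPKM in 4 libraries, the same with 0.1 as pseudocount or with no filter, a threshold of 0.1, and leaving out mice. Fold changes on the log2(FPKM + pseudocount) scale understate changes of low genes. Promoter sequences are from RefSeq, and the Xbp1 site from the GENCODE M21 transcripts.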

Additional observations from a re-analysis of the deposited data

Results flagged for a closer look

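In 7 of 110 groups of 4 livers, the 54 genes and Nfil3 in 2 groups each, 1 liver stood apart by Dixon's 95% criterion, and chance alone flags about 1 in 20 such groups. In E4bp4-LKO, liver 144 was the high one for Syvn1 at 115.8 CPM, against 78.2 to 79.3 CPM in the other 3, for Sec31a at 258.9 CPM, against 212.6 to 217.4 CPM, and for Sec24d at 137.5 CPM, against 114.9 to 116.1 CPM. Liver 143 was the low one for Dad1 at 73.62 CPM, against 79.93 to 80.59 CPM in the other E4bp4-LKO livers. In WT, liver 165 was high for Sec63 at 145.5 CPM, against 133.0 to 134.5 CPM, liver 167 was high for Sec24d at 122.7 CPM, against 114.3 to 115.6 CPM, and liver 164 was low for Spcs1 at 48.09 CPM, against 54.14 to 54.47 CPM. What set these livers apart was not tested.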

How the results depend on the processing

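No paired analysis was possible because the groups share no mouse numbers. Of 968 fold changes of members under other settings, 784 kept their direction and side of the threshold, 125 reversed, 46 lost and 13 gained the call, and 0 reversed among the 5 genes called. Members called higher, 5 as reported, numbered 1 with library totals (Xbp1), 10 in DESeq2 (also Atf6, Dnajc3, Sec63, Sel1l and Atf4), 3 with a 5 CPM filter (Xbp1, Ern1 and Mbtps1), 1 in limma on log2(FPKM + 1) or log2(FPKM + 0.1) (Xbp1), 0 in limma on log2(FPKM + 1) with no filter (Xbp1 adjusted p = 0.0696), 10 at an adjusted p under 0.1, 1 without WT 164 and 165 (Xbp1) and 1 to 5 with 1 mouse left out. There was 1 without E4bp4-LKO 144 or 179 or WT 165 or 166, and 2 without WT 167. Of all genes in each fit, 2.20% were called higher with library totals, 5.79% in DESeq2 and 1.36% without WT 164 and 165. Members called lower numbered 0 to 1. All genes called, 1436 as reported, numbered 2233 in DESeq2, 2488 at 0.1, 387 without WT 164 and 165 and 506 to 1539 with 1 mouse left out. The secretory median was -0.04 with library totals and in limma on FPKM with a pseudocount of 1, of 0.1 and with no filter, and 0.09 to 0.14 with 1 mouse left out. That of the ATF4 arm was -0.37 with library totals and -0.32 to -0.017 with 1 mouse left out. The log2 fold change of Nfil3 was -1.50 to -1.17 with 1 mouse left out. Reversed log2 fold changes were, with library totals, Hsp90b1 -0.012, Calr -0.082, Canx -0.058, Pdia3 -0.081, Pdia4 -0.066, Pdia6 -0.037, Dnajb9 -0.0001, Dnajb11 -0.049, Sec61a1 -0.023, Sec61b -0.126, Ssr2 -0.143, Ssr3 -0.145, Ssr4 -0.038, Sec11c -0.127, Rpn2 -0.063, Dad1 -0.138, Sec24d -0.104, Sec31a -0.028, Edem2 -0.120, Derl1 -0.081, Derl2 -0.040, Trib3 -0.127. In limma on log2(FPKM + 1), with and without the filter, they were Hsp90b1 -0.012, Calr -0.074, Canx -0.052, Pdia3 -0.076, Pdia4 -0.065, Pdia6 -0.033, Dnajb11 -0.049, Sec61a1 -0.022, Sec61b -0.124, Ssr2 -0.138, Ssr3 -0.140, Ssr4 -0.035, Sec11c -0.132, Rpn2 -0.060, Dad1 -0.141, Sec24d -0.103, Sec31a -0.030, Edem2 -0.111, Derl1 -0.079, Derl2 -0.038, Trib3 -0.159. With a pseudocount of 0.1 they were Hsp90b1 -0.012, Calr -0.074, Canx -0.053, Pdia3 -0.077, Pdia4 -0.066, Pdia6 -0.034, Dnajb11 -0.051, Sec61a1 -0.022, Sec61b -0.125, Ssr2 -0.140, Ssr3 -0.141, Ssr4 -0.036, Sec11c -0.139, Rpn2 -0.061, Dad1 -0.142, Sec24d -0.106, Sec31a -0.031, Edem2 -0.115, Derl1 -0.080, Derl2 -0.039, Trib3 -0.214. Near 0, P4hb 0.0023 and Stt3a 0.0037 reversed in DESeq2, Stt3a 0.0002 with DESeq2 size factors and 0.0015 with no low-count filter, and Ssr2 -0.0080, Ssr3 -0.0094 and Dad1 -0.0088 with the 5 CPM filter. Without WT 164 and 165, Sec11c -0.0067, Stt3a 0.060, Rpn1 0.022 and Dad1 -0.048 reversed. With 1 mouse left out, ranges that crossed 0 were P4hb -0.049 to 0.028, Ssr2 -0.033 to 0.049, Ssr3 -0.032 to 0.057, Spcs1 -0.048 to 0.013, Sec11c -0.078 to 0.10, Stt3a -0.018 to 0.032, Rpn1 -0.027 to 0.036, Dad1 -0.0099 to 0.057, Sec24d -0.012 to 0.079, Derl3 -0.29 to 0.58, Herpud1 -0.16 to 0.016, Trib3 -0.33 to 0.21. The causes were not tested. Depth limits Asns most, at 8 to 46 counts per library.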
